A study of Mus musculus with 10 samples.

Results

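Rag1, Rag2, Dntt, Vpreb1, Igll1, Vpreb3, Il7r and Ebf1, 8 genes that mark the pro-B and pre-B stages of B cell development, were followed in the bone marrow (BM) of mice reconstituted with fetal liver hematopoietic stem cells (HSCs). They were chosen by name, and each was read from the single-gene probe set with the highest mean over the arrays. All 8 of 8 had a probe set, each of them just 1, among 19938 genes with a single-gene probe set and 35556 probe sets in all. The study describes the donors as C57BL6 embryos of both sexes, from dams fed a vitamin D-deficient diet, VD(−), or a vitamin D-sufficient diet, VD(+). Their fetal liver cells were given to irradiated recipients that were all vitamin D-sufficient. By design the groups differ in the diet of the donors' dams. They also differ in Y-linked signal, carried by 3 VD(−) arrays and by no VD(+) array, pools included, as given further on. The VD(+) values thus show no sign of male donor cells. The labels do not say which sample held which sex, so diet and sex cannot be fully told apart. Total RNA of recipient BM was hybridized to 5 arrays per group, 3 of single samples and 2 of pooled RNA. The labels speak of mice aged 8 weeks and name BM as the source in 1 field and BM macrophages in another, and the sources differ on how long after transplantation BM was collected. Whether a pool holds RNA of the single samples of its group is not known, so the spread measured here is that between arrays.

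B cells are made in the BM from common lymphoid progenitors. In pro-B cells the RAG1 and RAG2 recombinase cuts the immunoglobulin gene segments, and terminal deoxynucleotidyl transferase, the product of Dntt, adds bases at the joints. A successful heavy chain is then tested at the surface with a surrogate light chain built from VpreB and λ5, which Vpreb1 and Igll1 encode, before the light chain genes are rearranged. The receptor for interleukin 7, whose α chain Il7r encodes, drives survival and growth of these cells in the mouse, and EBF1 is among the transcription factors that commit progenitors to the B lineage. The question put to the data was whether these genes differed between recipients of VD(−) and VD(+) HSCs. In whole BM, fewer cells of a type and less RNA per cell cannot be told apart.

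Several members are neighbors in the genome. In the RefSeq gene table (build GRCm38.p6) Rag2 (chr2:101624712-101632528) and Rag1 (chr2:101638252-101649532) are separated by 5723 bases and read toward each other. Igll1 (chr16:16860671-16863985) and Vpreb1 (chr16:16868401-16869255) are separated by 4415 bases, while Dntt lies at chr19:41029275-41059525, Vpreb3 at chr10:75943024-75949657, Il7r at chr15:9506159-9529941 and Ebf1 at chr11:44618100-45008096. For the array's own probe sets no build is given in the sources used here.

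The 250 bases before the RefSeq start are shown for the 6 members whose signal on VD(−) pool 1 lay above that on all VD(+) arrays, as described further on. The Vpreb3 window precedes a transcript start that lies inside the span of the gene given above. Capitals mark matches, on either strand, to 5 short motifs of factors known in early B cells: CCCNNGGG (EBF), the E-boxes CAGGTG and CAGCTG (E2A), ATGCAAAT (the octamer) and TGTGGT (RUNX). Each sequence is read 5′ to 3′ toward its gene.
Rag1, chr2:101649533-101649782, minus strand: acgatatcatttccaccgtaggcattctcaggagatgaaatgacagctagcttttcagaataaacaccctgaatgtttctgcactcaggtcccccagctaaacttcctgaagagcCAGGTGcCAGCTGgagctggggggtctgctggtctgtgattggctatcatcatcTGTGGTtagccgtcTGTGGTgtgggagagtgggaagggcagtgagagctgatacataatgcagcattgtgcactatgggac
Rag2, chr2:101624462-101624711, plus strand: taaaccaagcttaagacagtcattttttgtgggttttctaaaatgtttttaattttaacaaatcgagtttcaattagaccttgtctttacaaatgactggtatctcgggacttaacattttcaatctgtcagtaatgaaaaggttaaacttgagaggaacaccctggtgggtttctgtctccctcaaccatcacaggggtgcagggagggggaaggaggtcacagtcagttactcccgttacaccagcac
Dntt, chr19:41029025-41029274, plus strand: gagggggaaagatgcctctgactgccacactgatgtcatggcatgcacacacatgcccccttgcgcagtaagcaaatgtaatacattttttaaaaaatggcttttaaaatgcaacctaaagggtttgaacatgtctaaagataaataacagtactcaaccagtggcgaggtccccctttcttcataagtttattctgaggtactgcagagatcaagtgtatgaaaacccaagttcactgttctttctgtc
Vpreb1, chr16:16869256-16869505, minus strand: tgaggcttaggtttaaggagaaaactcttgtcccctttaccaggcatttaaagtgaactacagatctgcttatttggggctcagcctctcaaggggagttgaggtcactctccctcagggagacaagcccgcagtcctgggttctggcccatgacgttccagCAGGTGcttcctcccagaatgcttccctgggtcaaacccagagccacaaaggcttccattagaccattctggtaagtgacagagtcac
Igll1, chr16:16863986-16864235, minus strand: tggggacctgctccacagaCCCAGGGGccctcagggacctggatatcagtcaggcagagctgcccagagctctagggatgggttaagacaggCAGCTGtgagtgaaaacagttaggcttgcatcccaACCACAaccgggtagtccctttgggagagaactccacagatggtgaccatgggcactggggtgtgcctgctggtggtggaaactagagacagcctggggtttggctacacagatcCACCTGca
Vpreb3, chr10:75948050-75948299, plus strand: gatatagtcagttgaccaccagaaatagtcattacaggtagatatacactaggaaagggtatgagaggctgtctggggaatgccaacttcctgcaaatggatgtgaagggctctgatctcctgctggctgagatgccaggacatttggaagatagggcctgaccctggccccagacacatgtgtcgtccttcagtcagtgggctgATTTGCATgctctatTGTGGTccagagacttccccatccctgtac
Rag1 held 4 matches, to both E-boxes and, at 2 places, to the RUNX motif. Igll1 also held 4, to the EBF motif, to both E-boxes and to the RUNX motif, with the CAGGTG box and the RUNX motif on the opposite strand. Vpreb1 held 1 match, to CAGGTG, and Vpreb3 held the octamer, on the opposite strand, and the RUNX motif. Rag2, Dntt and Il7r held none of these letters in this window, and 1 of the 2 Ebf1 starts held the RUNX motif. No matches overlapped. Of all 32851 windows of this length in the table, 11.8% held CCCNNGGG, 17.2% CAGGTG, 13.0% CAGCTG, 1.6% the octamer and 14.0% TGTGGT, and among the 8 members these motifs were found in 1, 3, 2, 1 and 4 genes. Vpreb1 has a near-identical copy, Vpreb2, and where their windows of sequence around the start could be laid side by side 153 of 156 bases (98.1%) were identical. Whether the probes of either gene also bind RNA of the other is not known.

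The deposited values are log2 signals whose array medians lay between 4.74 and 4.80. Some arrays stood apart in genes of other kinds. The mean log2 signal of 3 Y-linked genes (Kdm5d, Eif2s3y and Uty) was between 2.25 and 2.56 on the VD(+) arrays and was 6.64 on VD(−) replicate 1, 2.35 on replicate 2, 2.44 on replicate 3, 6.80 on pool 1 and 5.31 on pool 2. Xist, the RNA that coats the inactive X chromosome, was between 10.16 and 10.30 on the VD(+) arrays and was lowest on VD(−) replicate 1, at 7.76, and pool 1, at 8.14. On VD(−) pool 2 the fast muscle gene Tnnt3, named after its values were seen, was at 9.43 against 5.36 to 6.06 on the 9 other arrays.

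None of the 8 members differed between the groups by limma at an adjusted p under 0.05, where 0.118% of all probe sets did (42 of 35556), and none passed at an unadjusted p under 0.05, where 7.09% of all probe sets did. The methods' t-test also passed 0 members, both at the nominal p and ratio limits that the methods set, which 1843 probe sets met, and after the Benjamini-Hochberg adjustment, which 9 met. In none of the members did the 5 VD(−) arrays lie apart from the 5 VD(+) arrays, against 1.55% of all probe sets. The difference, VD(−) less VD(+), was above 0 for 5 members and below 0 for 3, and the median difference was 0.17 on the log2 scale, beside −0.0028 over all probe sets. For Rag1, Rag2, Dntt, Vpreb1, Igll1 and Vpreb3 the VD(−) arrays reached both below and above the VD(+) arrays. For Rag1 the reach above was narrow, with a highest signal of 7.33 against 7.29.

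**Figure D1:**
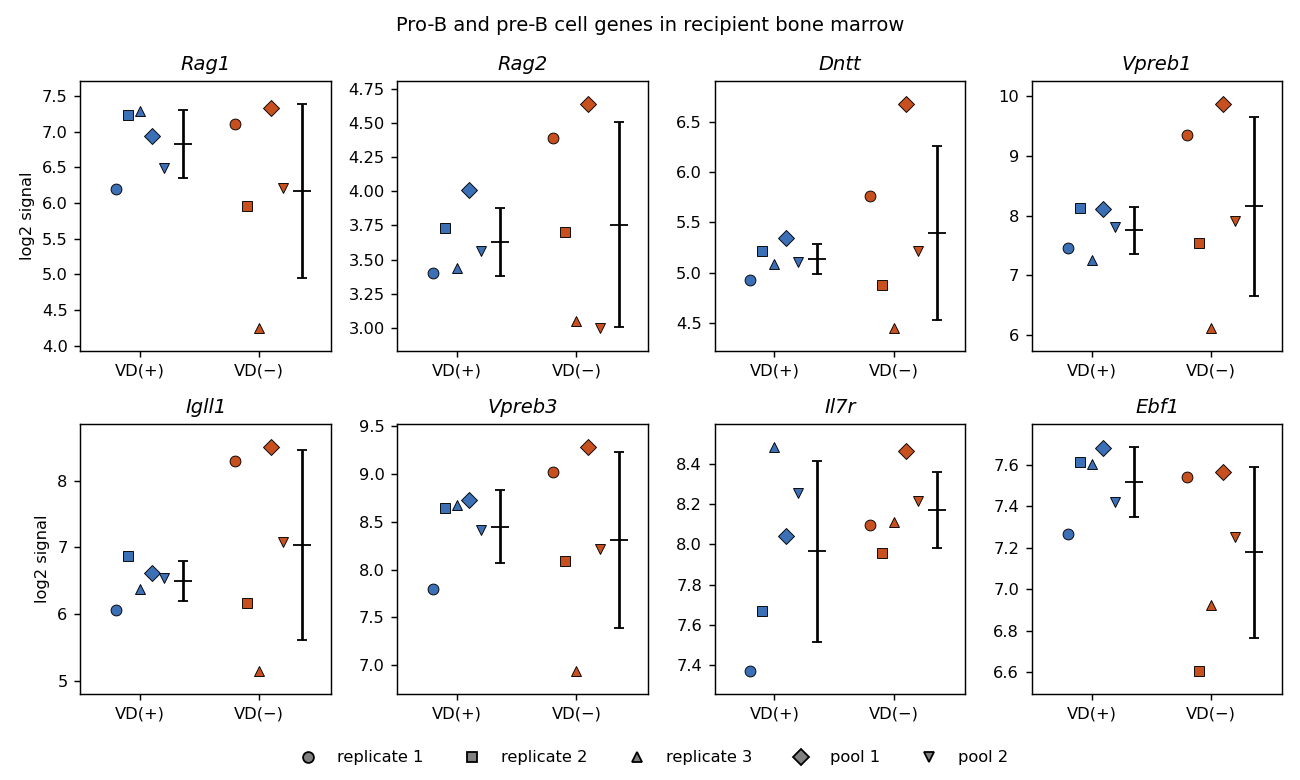
Log2 signal (y axes, each with its own scale) of the 8 members on the 5 VD(+) arrays (blue) and the 5 VD(−) arrays (orange), with a symbol for each replicate or pool. Black bars give the group mean ± SD (n = 5 arrays). The VD(−) arrays reach above and below the VD(+) arrays for Rag1, Rag2, Dntt, Vpreb1, Igll1 and Vpreb3. For Ebf1 they reach only below, and for Il7r neither above nor below.

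The recombination genes are given first. Rag1, the recombinase subunit that carries the catalytic site, had log2 signals of 6.19, 7.24 and 7.29 on VD(+) replicates 1 to 3 and of 6.94 and 6.48 on VD(+) pools 1 and 2. Its signals on the VD(−) arrays were 7.11, 5.96 and 4.24 on replicates 1 to 3 and 7.33 and 6.21 on the pools. VD(−) replicate 3 lay far below every other array, and pool 1 was the highest array of all. The difference, VD(−) less VD(+), was −0.66 ± 0.51 (SE, n = 5 arrays per group; limma adjusted p = 0.823; exact permutation p = 0.302, two-sided), with a 95% confidence interval from −1.79 to 0.47.

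Rag2, the partner that RAG1 needs for cutting, gave a low signal, with a mean above that of 33.8% of all probe sets. It read 3.40, 3.73, 3.44, 4.01 and 3.56 on the VD(+) arrays in the same order, and 4.39, 3.70, 3.05, 4.64 and 3.0 on the VD(−) arrays. VD(−) replicate 1 and pool 1 were above all VD(+) arrays, and replicate 3 and pool 2 were below them. The difference was 0.13 ± 0.31 (SE; limma adjusted p = 0.958; exact permutation p = 0.730), with an interval from −0.56 to 0.82.

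Dntt, too, was highest on VD(−) pool 1 and replicate 1. On the VD(+) arrays it read 4.93, 5.21, 5.09, 5.34 and 5.10, a range of 0.41. On the VD(−) arrays it read 5.76, 4.88, 4.45, 6.68 and 5.21, a range of 2.23 that corresponds to a 4.69-fold span of signal. The difference between the means was 0.26 ± 0.34 (SE; limma adjusted p = 0.908; exact permutation p = 0.595), with an interval from −0.50 to 1.02.

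The surrogate light chain genes spread the most. Vpreb1 read 7.45, 8.13, 7.25, 8.10 and 7.81 on the VD(+) arrays, a span of 1.84-fold. On the VD(−) arrays it read 9.36, 7.54, 6.11, 9.88 and 7.90, a span of 13.7-fold. Replicate 1 and pool 1 exceeded every VD(+) array, replicate 3 fell short of every one, and replicate 2 and pool 2 lay among them. The means differed by 0.41 ± 0.60 (SE; limma adjusted p = 0.921; exact permutation p = 0.563), with an interval from −0.93 to 1.74, so that neither a fall of 0.93 nor a rise of 1.74 lies outside it.

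Igll1, whose product λ5 pairs with VpreB, showed the same arrays at the extremes. Its signals were 6.07, 6.87, 6.37, 6.62 and 6.54 on the VD(+) arrays, and 8.30, 6.16, 5.14, 8.51 and 7.07 on the VD(−) arrays. Here pool 2 also exceeded all VD(+) arrays, which made 3 VD(−) arrays above and 1 below. The VD(−) arrays spanned 10.3-fold, against 1.75-fold for VD(+), around a difference of 0.54 ± 0.57 (SE; limma adjusted p = 0.873; exact permutation p = 0.389; interval −0.71 to 1.79).

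Vpreb3, a VpreB-like protein of the same cells, read 7.79, 8.64, 8.67, 8.72 and 8.41 on the VD(+) arrays. It read 9.02, 8.09, 6.94, 9.28 and 8.22 on the VD(−) arrays, again with replicate 1 and pool 1 on top and replicate 3 at the bottom. The difference was −0.14 ± 0.39 (SE; limma adjusted p = 0.965; exact permutation p = 0.794; interval −1.0 to 0.72).

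Il7r stood apart from the other members. It read 7.37, 7.67, 8.48, 8.04 and 8.26 on the VD(+) arrays and 8.10, 7.95, 8.11, 8.46 and 8.21 on the VD(−) arrays, so that here the VD(+) arrays were the more scattered and every VD(−) array lay within their range. Its difference was 0.20 ± 0.19 (SE; limma adjusted p = 0.860; exact permutation p = 0.381; interval −0.23 to 0.63). In BM, Il7r is also expressed by common lymphoid progenitors and by T cells.

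Ebf1 also had its highest VD(−) signals on pool 1 and replicate 1, though not above the VD(+) arrays. It read 7.27, 7.62, 7.60, 7.68 and 7.42 on the VD(+) arrays and 7.54, 6.60, 6.92, 7.57 and 7.25 on the VD(−) arrays. No VD(−) array exceeded the VD(+) arrays, and replicates 2 and 3 and, narrowly, pool 2 were below all of them. The difference of −0.34 ± 0.18 (SE; limma adjusted p = 0.747; exact permutation p = 0.127; interval −0.74 to 0.06) had the smallest unadjusted p of the members, 0.0867 by limma.

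The SD over the VD(−) arrays was more than 2 times that over the VD(+) arrays for 7 of the 8 members, against 12.2% of all probe sets (4329 of 35556). Since the genes were chosen with results of these data known, this is a description and was not tested. The 7 moved together across the arrays, as given below, so they are not separate results. The ratio of the SDs was 5.64 for Dntt (SD 0.86 against 0.15), 4.76 for Igll1 (1.43 against 0.30), 3.86 for Vpreb1 (1.50 against 0.39) and 3.02 for Rag2 (0.75 against 0.25). It was 2.56 for Rag1, 2.43 for Ebf1 and 2.40 for Vpreb3, which were thus nearest to the limit, and 0.42 for Il7r. Over all probe sets the median SD was 0.17 in either group. Only 16 probe sets had a larger SD over the VD(−) arrays than Vpreb1, only 21 a larger one than Igll1 and only 47 a larger one than Rag1.

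**Figure D2:**
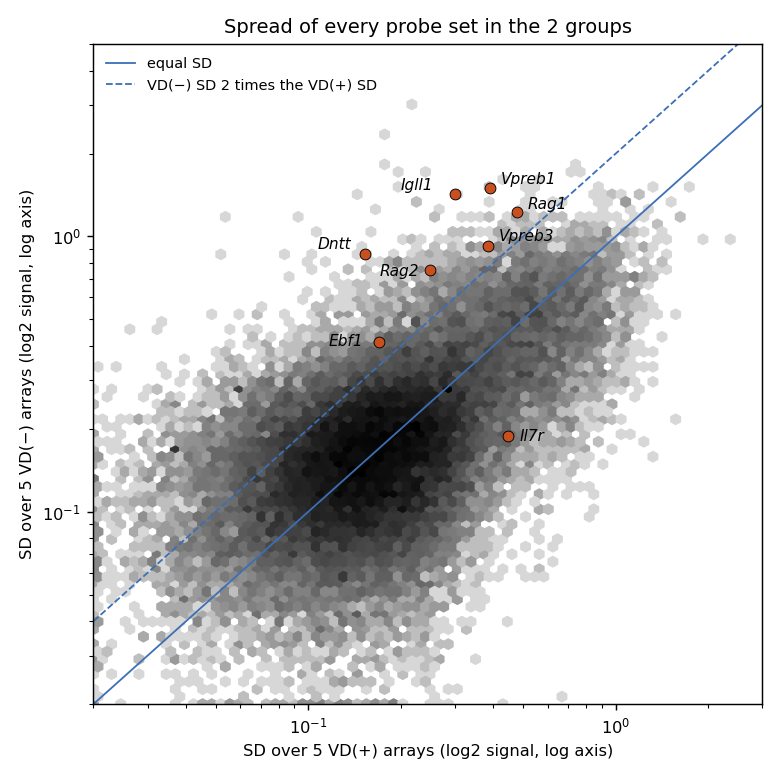
SD of the log2 signal over the 5 VD(−) arrays (y axis) against that over the 5 VD(+) arrays (x axis) for all 35556 probe sets (grey, darker where more probe sets fall, SDs under 0.02 drawn at the edge), with the 8 members in orange; both axes are logarithmic. The solid line marks equal SDs and the dashed line a VD(−) SD 2 times that of VD(+), above which 7 members lie, all except Il7r.

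The same arrays made the scatter in most members. VD(−) pool 1 was the highest VD(−) array for 8 of 8 members and lay above all VD(+) arrays for 6 of them, and replicate 1 lay above all VD(+) arrays for 5. VD(−) replicate 3 was below all VD(+) arrays for 7 members, replicate 2 for 3 and pool 2 for 2. Pool 1 exceeded all 3 single VD(−) samples for 8 of 8 members, whereas pool 2 lay within their range for 6. In the VD(+) group, replicate 1 was the lowest array for 7 members, by smaller margins. After removal of the group means, the correlation of a member with the mean of the other 7, each divided by its SD, was between 0.80 and 0.97 for 7 members over the 10 arrays and was 0.33 for Il7r. These correlations are descriptions, as the values share the same 10 arrays.

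**Figure D3:**
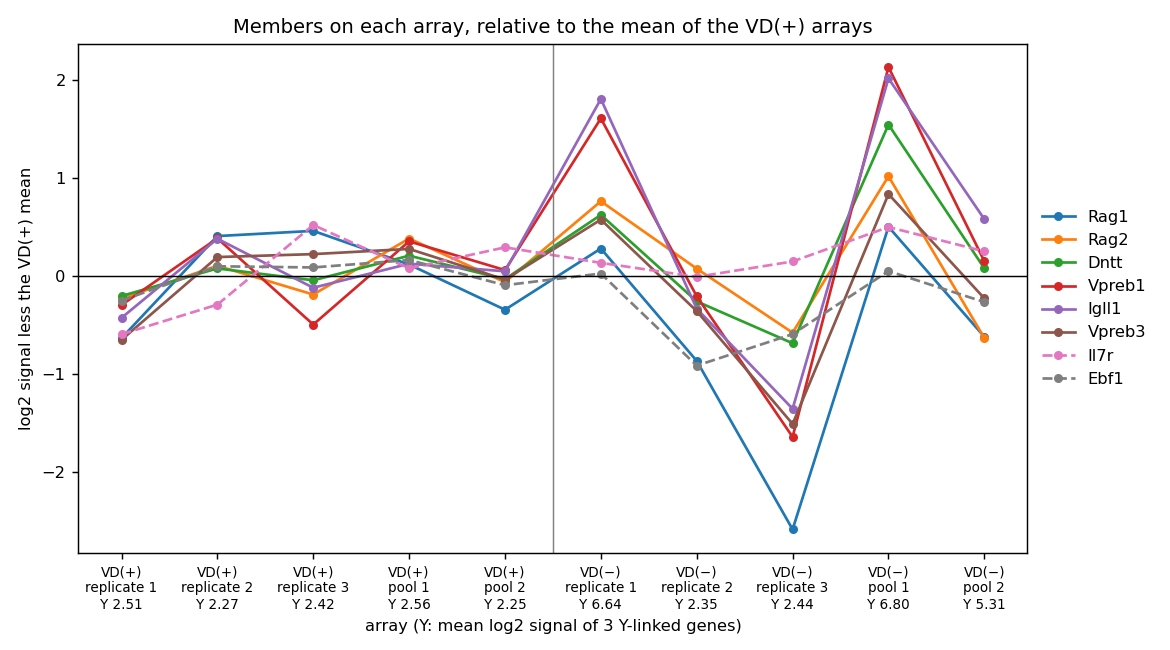
Log2 signal of each member less its mean over the VD(+) arrays (y axis) on the 10 arrays (x axis, VD(+) on the left, VD(−) on the right), with the mean log2 signal of 3 Y-linked genes under each array. Solid lines join the 6 members that are high on VD(−) replicate 1 and pool 1 and low on replicate 3; Il7r and Ebf1 are dashed.

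The arrays on which the members were highest were also those with the most Y-linked signal. On VD(−) replicate 1 and pool 1, with Y-linked means of 6.64 and 6.80, the mean log2 signal of the 8 members was 7.45 and 7.79. On VD(−) replicates 2 and 3, whose Y-linked means of 2.35 and 2.44 lay within the range of the VD(+) arrays, it was 6.36 and 5.62, while pool 2 was intermediate in Y-linked signal and had a mean of 6.63. The VD(+) arrays, all low in Y-linked signal, lay between 6.31 and 6.93. The part of the Y-linked signal in the scatter of the members was not tested.

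The direction of the difference turned with the arrays used. Without VD(−) pool 1 alone, Rag2 was at −0.094, Dntt at −0.062, Vpreb1 at −0.024 and the median of the members at −0.078, and without VD(−) replicate 3 alone Vpreb3 was at 0.20. When VD(−) replicates 2 and 3, the arrays without Y-linked signal, were compared with all 5 VD(+) arrays, 7 of 8 members had a difference below 0, and 6 of them had an unadjusted p under 0.05 by limma, against 3.05% of all probe sets in that direction. The median difference of the members was then −0.80, with Rag1 at −1.73 and Ebf1 at −0.75, and none passed after adjustment (smallest adjusted p = 0.407). The VD(−) side of this comparison rests on these replicates alone, of which replicate 3 was below all VD(+) arrays for 7 members and replicate 2 for 3. Most members moved together across the arrays, so the 6 are not separate results. With the Y-linked mean less the Xist signal as a covariate over all 10 arrays the median difference was −0.79. In that fit 6 members had an unadjusted p under 0.05 in the lower direction, against 3.63% of all probe sets. Ebf1 was then at −0.74 (limma adjusted p = 0.138), the smallest adjusted p of a member under any setting, and Rag1 at −1.73 (adjusted p = 0.321). The covariate hardly varied among the VD(+) arrays, so its slope came almost wholly from the VD(−) arrays. The fit is therefore not a result separate from the comparison of VD(−) replicates 2 and 3.

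When the 3 VD(−) arrays with Y-linked signal were compared with the VD(+) arrays, a comparison added after the data were seen, 3 members had an unadjusted p under 0.05, against 7.71% of all probe sets, each of them higher. Those were Igll1 at 1.47 (limma adjusted p = 0.283), Vpreb1 at 1.29 (adjusted p = 0.561) and Dntt at 0.75 (adjusted p = 0.610). The comparison keeps VD(−) replicate 1 and pool 1, already seen to lie above all VD(+) arrays for 5 and 6 members. A higher signal in it is therefore no separate evidence. As most members moved together across the arrays, the 3 are not separate results either. Ebf1 was then at −0.06 and Rag1 at 0.05. Rag1, Rag2, Dntt, Vpreb1, Igll1 and Vpreb3 lay above 0 in this part of the VD(−) arrays and below 0 in the part without Y-linked signal. Il7r lay above 0 in both parts, at 0.29 with and 0.07 without Y-linked signal, and Ebf1 below 0 in both. No member passed after adjustment in either part. What this split means for the difference over all arrays was not tested.

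**Figure D4:**
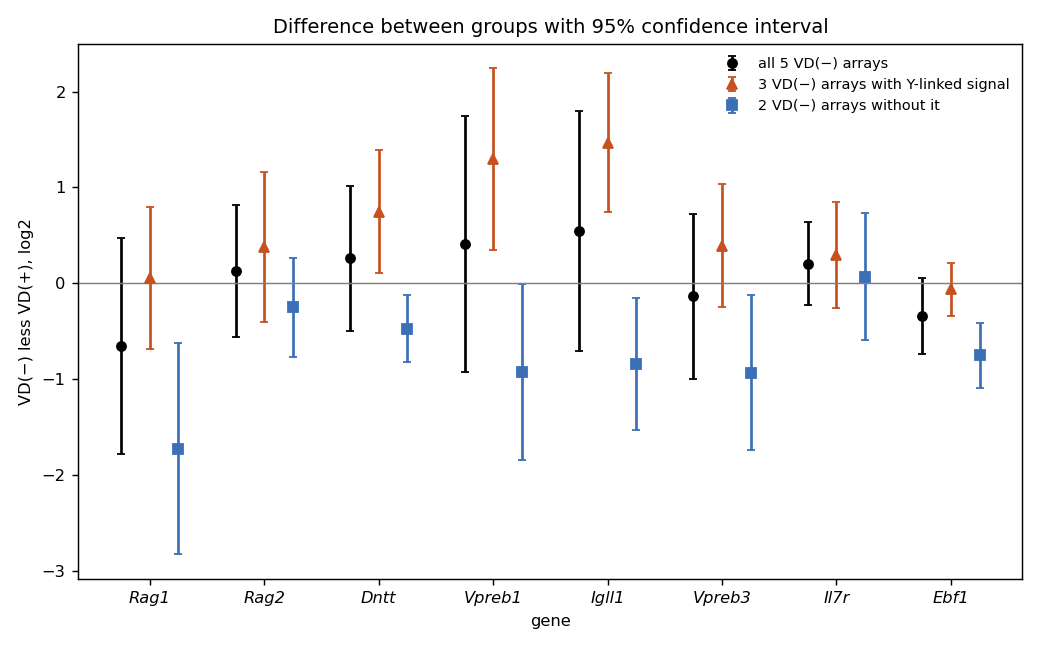
Difference in log2 signal, VD(−) less VD(+), of the 8 members (x axis) with its 95% confidence interval from limma, for all 5 VD(−) arrays (black circles), the 3 with Y-linked signal (orange triangles) and the 2 without it (blue squares), each against the 5 VD(+) arrays. With all arrays every interval includes 0; the blue squares lie below 0 for 7 members, all except Il7r.

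Other genes of the B lineage were counted in the same way. Of the 20 transcription factors of early B cells, 15 had a difference below 0 and 5 above, with a median of −0.08, and 2 had an unadjusted p under 0.05, each in the lower direction, where 3.23% of all probe sets did. These were Ikzf3 (Aiolos), at −0.29 ± 0.11 (SE; limma adjusted p = 0.637), and Pax5, which fixes B cell identity, at −0.28 ± 0.12 (adjusted p = 0.684), followed by Spib at −0.37 ± 0.18 (adjusted p = 0.730). The SD over the VD(−) arrays was more than 2 times that over the VD(+) arrays in 6 of the 20.

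Among 13 measured genes of the pre-B cell receptor and its signaling, 10 lay below 0 and 3 above (median −0.11). Of the 13, 2 had an unadjusted p under 0.05, each in the lower direction, where 3.23% of all probe sets passed. These were the kinase gene Prkcb at −0.20 ± 0.08 (SE; limma adjusted p = 0.634) and the adaptor gene Pik3ap1 at −0.19 ± 0.08 (adjusted p = 0.683). Cd79a, which encodes the signaling chain Igα of the receptor, was at −0.28 ± 0.13 (adjusted p = 0.710). The largest difference of the list went the other way, in the heavy chain gene Ighm, at 0.56 ± 0.27 (adjusted p = 0.730). Its lowest VD(−) arrays were replicate 1 (7.85) and pool 1 (8.13), on which the members were high, and its highest was replicate 2 (9.27). Of the 12 measured genes of IL-7 signaling none passed at an unadjusted p under 0.05, where 7.09% of all probe sets did. Of these genes 6 lay above 0 and 6 below (median −0.02), and those with the smallest p were Crlf2 at −0.12, Il7 at 0.19 and Ccnd2 at 0.18. The 12 measured partners of RAG in end joining were likewise divided 6 to 6 (median 0.01), with Nhej1, a factor of DNA end ligation, at 0.30 ± 0.13 (adjusted p = 0.695), Hmgb1 at 0.24 and Prkdc at 0.15. None of the genes in these 4 lists passed at an adjusted p under 0.05. The order of the VD(−) arrays differed between lists. The mean of the pre-B cell receptor list was lowest on replicate 1 (7.81) and highest on replicate 3 (7.93). That of the IL-7 list was lowest on pool 1 (6.36) and highest on replicate 3 (6.62). The end joining list was highest on pool 1 (6.66) and replicate 1 (6.58), as the members were.

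Of 16 other genes of pro-B and pre-B cells, 7 lay above 0 and 9 below (median −0.01), and 1 had an unadjusted p under 0.05, Enpep, which encodes the early B cell antigen BP-1, at 0.41 ± 0.14 (SE; limma adjusted p = 0.584), where 3.85% of all probe sets passed in that direction. Enpep read 4.31, 4.37, 4.09, 4.06 and 4.51 on the VD(+) arrays and 4.79, 4.45, 4.51, 5.13 and 4.51 on the VD(−) arrays. Its highest arrays, VD(−) pool 1 and replicate 1, were those on which the members were high. Cd72, a B cell coreceptor, was at −0.39 ± 0.25 (adjusted p = 0.796), and its VD(−) arrays read 7.34, 6.30, 6.36, 7.60 and 6.60. In 6 of the 16 genes the VD(−) SD was more than 2 times that of VD(+). Vpreb2 read 4.86, 4.57, 4.44, 5.07 and 4.41 on the VD(−) arrays and between 4.35 and 4.60 on the VD(+) arrays (difference 0.19 ± 0.13, adjusted p = 0.804).

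Genes of the stages before and after were counted too. Of 9 measured genes of common lymphoid progenitors, 6 had a difference below 0 and 3 above (median −0.11), with Ccr9 at 0.43 ± 0.17 (SE; limma adjusted p = 0.649), Flt3 at −0.32 ± 0.15 (adjusted p = 0.722) and Lsp1 at −0.18, and 1 of the 9 had a VD(−) SD over 2 times that of VD(+). Of 14 measured genes of mature B cells 13 lay below 0 and 1 above (median −0.20), 5 of them at an unadjusted p under 0.05, each in the lower direction, where 3.23% of all probe sets passed. Fcer2a, which encodes CD23, a receptor for IgE on mature B cells, was lower by −0.58 ± 0.08 (limma adjusted p = 0.0305; exact permutation p = 0.00794, the smallest that 5 against 5 arrays can give), the 1 gene of these lists to pass. Fcer2a lay between 5.65 and 5.90 on the VD(−) arrays and between 6.24 and 6.58 on the VD(+) arrays, so that its groups did not overlap, and its difference was below 0 under all 23 alternatives, with an adjusted p between 0.0131 and 0.921 that passed in 6 of them, and when 1 array was left out it passed only without VD(+) pool 1 (0.0448). Ms4a1 (CD20) was at −0.44 ± 0.13 (adjusted p = 0.521) and Cd40 at −0.25 ± 0.09 (adjusted p = 0.565).

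**Figure D5:**
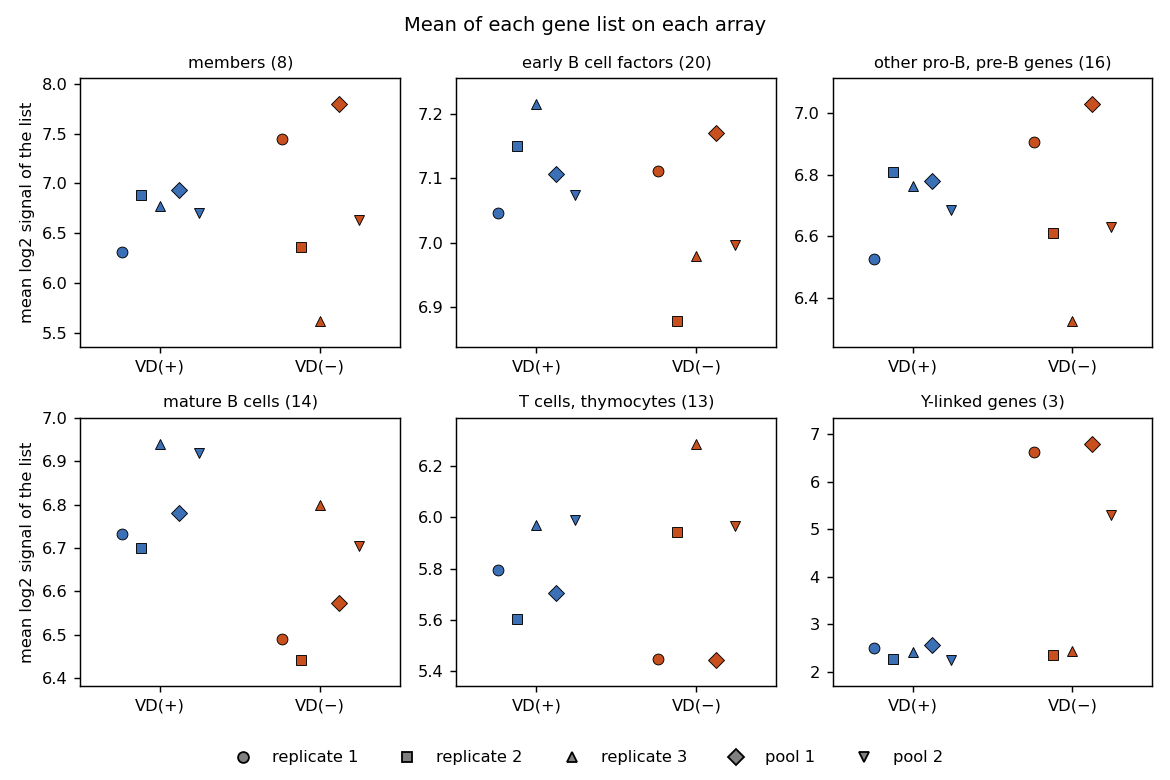
Mean log2 signal (y axes, each with its own scale) of the members, of 4 gene lists and of the Y-linked genes on the VD(+) arrays (blue) and VD(−) arrays (orange), with a symbol for each replicate or pool and the number of measured genes in brackets. VD(−) replicate 1 and pool 1 are the highest VD(−) arrays for the members, the early B cell factors and the other pro-B and pre-B genes, and the lowest for the T cell list. The mature B cell list does not share the order of the members, with replicate 3 its highest VD(−) array (6.80, against 6.49 on replicate 1 and 6.57 on pool 1).

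The mean of the T cell and thymocyte markers ran the other way across the VD(−) arrays. The mean log2 signal of their 13 measured genes was 5.45 and 5.44 on VD(−) replicate 1 and pool 1, 6.29 on replicate 3, and 5.95 and 5.97 on replicate 2 and pool 2, against 5.60 to 5.99 on the VD(+) arrays. Cd3e, a chain of the T cell receptor complex named after its values were seen, read 5.97, 6.70, 7.70, 6.20 and 6.92 on the VD(−) arrays. In 11 of the 13 genes the signals on VD(−) replicate 1 and pool 1 were both below that on replicate 3. The exceptions were Cd4, at 4.97, 4.88, 4.71, 4.77 and 4.93 on the VD(−) arrays, and Ptcra, at 4.22, 4.18, 4.15, 3.69 and 3.62. No T cell gene passed at an unadjusted p under 0.05, where 7.09% of all probe sets did. Those with the smallest p were Cd4 at 0.23, Ptcra at −0.16 and Thy1 at −0.27, and 5 of 13 had a VD(−) SD over 2 times that of VD(+). This order of the arrays was not particular to the T cell list. VD(−) replicate 1 and pool 1 were also the lowest VD(−) arrays for the NK and innate lymphoid genes, at 5.36 each, against 5.59 to 5.69 on the others. The same held for the neutrophil genes, at 11.31 and 11.20 against 11.38 to 11.65. The part of T cells in the result was not tested.

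The other lists spanned less across the VD(−) arrays than the T cell list. The mean of the 12 measured macrophage genes lay between 8.16 and 8.62 on the VD(−) arrays, highest on pool 1 and lowest on replicate 3, and between 7.90 and 8.31 on the VD(+) arrays, with a difference above 0 in 12 of 12 (median 0.17), Cd68 at 0.27 (limma adjusted p = 0.482), Timd4 at 0.42 and Vcam1 at 0.23. Of 10 genes of the niche that feeds lymphoid progenitors 8 lay above 0 (median 0.15), with Lepr at 0.33 (adjusted p = 0.634), Cxcl12, the chemokine that retains them, at 0.24 (adjusted p = 0.663) and Lgals1 at 0.18. The means of the 8 plasma cell genes lay between 6.35 and 6.47 on the VD(−) arrays and between 6.30 and 6.44 on the VD(+) arrays. Those of the 13 neutrophil genes lay between 11.20 and 11.65 and between 11.30 and 11.54, those of the 8 measured erythroid genes between 9.39 and 9.66 and between 9.38 and 9.60, those of the 7 measured NK and innate lymphoid genes between 5.36 and 5.69 and between 5.24 and 5.65, and those of the 11 measured cell cycle genes between 9.32 and 9.42 and between 9.28 and 9.33. None of the genes in these lists passed at an adjusted p under 0.05. Their part in the scatter of the members was not tested.

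The genes whose pattern was most like that of the members were sought by the correlation of their deviations from the group means with the mean scaled deviation of the members over the 10 arrays. The highest were Srp19 and Stambpl1 (r = 0.985 for each), Adat2 (0.982), Slamf7 and Akap12 (0.980), Apex1 (0.979), Gpam (0.974), Atp1b1 (0.972), Elof1 (0.969) and Nfxl1 (0.966). Without the 2 arrays farthest from the mean of the members, VD(−) pool 1 and replicate 3, the same correlations were between 0.892 and 0.958. All these values come from the same 10 arrays and are descriptions. Adat2, which encodes a subunit of a tRNA-editing deaminase, read 6.55, 6.66, 6.76, 6.72 and 6.74 on the VD(+) arrays and 7.72, 7.20, 6.99, 7.88 and 7.38 on the VD(−) arrays. It was thus higher on every VD(−) array, by 0.74 in the mean (limma adjusted p = 0.204), and within the VD(−) group followed the order of Vpreb1. Akap12, a scaffold of protein kinase A that was also among the other pro-B and pre-B genes, read 6.94, 5.99, 5.37, 7.07 and 6.15 on the VD(−) arrays and between 6.23 and 6.73 on the VD(+) arrays.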

How the data were processed

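Total RNA from the BM of recipients was hybridized to 10 arrays, 5 per group. Signals were processed by the authors with Partek software and, according to the submitters' processing notes, with RMA. The deposited values are RMA log2 signals, so differences in total RNA between arrays had been removed. A miRNA array is named in the methods, but the probe sets belong to a whole-transcript gene array. Neither filters nor a genome build are given in the sources used here, and 0 deposited columns were left unused. Gene names came from the array annotation, in which 21789 probe sets list 1 gene, 1621 several and 12146 none, and names from probe sets with several were not used.

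The linear model of limma 3.58.1 (lmFit, then eBayes; R 4.3.3) was fitted two-sided to the 35556 probe sets, with p-values adjusted by Benjamini-Hochberg over all of them, and members also with an exact permutation test over the 252 splits of 10 arrays, whose smallest p is 0.00794. The procedure was also run on simulated data with independent normal noise and the same SD in both groups. Most members moved together and had unequal SDs, so that run does not show how the procedure performs on them. The number of arrays limits the precision. Samples were grouped by their labels. The members and gene lists (15 lists, 178 of 193 genes measured, besides the Y-linked genes and Xist) were chosen with earlier results of these data known. Named are all members, the 3 genes with the smallest unadjusted p of each described list, and Ighm for the size of its difference. Also named are the 10 genes most like the members by correlation. They were taken from single-gene probe sets with a mean above the median, predicted gene models left out. Lists summarised by their means alone are not broken down by gene. Promoter sequences and positions are from RefSeq (GRCm38.p6), where all 8 members matched.

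Alternatives were the methods' t-test, brighter probe sets alone, cyclic loess, quantile normalization, array weights, a trended and robust spread, pool or single as a covariate, single arrays or pools alone, the Y-linked mean less Xist as a covariate, the VD(−) arrays without (or, added after the data were seen, with) Y-linked signal, the replicate number as a block, and leaving out each array. Averaging a gene's probe sets changes nothing, as each member has 1.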

Additional observations from a re-analysis of the deposited data

How the results depend on the processing

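No member passed at an adjusted p under 0.05 under any of the 23 alternatives. The count of probe sets that passed, 42, was 9 by the methods' t-test, 1 with single arrays alone, 2 with the pools alone, 25 with the Y-linked covariate and 12 without the VD(−) arrays that carry Y-linked signal, and lay between 7 (without VD(+) replicate 3) and 43 (without VD(−) replicate 2) when an array was left out. With the replicate number as a block it was 3, the block changed no call of a member, and same-numbered arrays did not deviate together (r from −0.052 to 0.061), so the numbers were not taken as pairs. The members at an unadjusted p under 0.05, 0 with all arrays, were 6 with the Y-linked covariate, 6 without the arrays with Y-linked signal, 3 with those arrays alone, and 0 to 1 when an array was left out (1 without VD(−) replicate 1, replicate 3 or pool 1).

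The median difference of the members was −0.79 with the Y-linked covariate and −0.80 without the arrays with Y-linked signal, and from −0.078 (without VD(−) pool 1) to 0.26 (without VD(−) replicate 3) on leaving out an array. Signs also turned for single members. With the Y-linked covariate Rag2 was −0.45, Dntt −0.52, Vpreb1 −0.99 and Igll1 −0.84, and without the arrays with Y-linked signal they were −0.25, −0.47, −0.93 and −0.84. With the VD(−) arrays with Y-linked signal alone Rag1 was 0.053 and Vpreb3 0.39, with the pools alone Rag1 was 0.055 and Vpreb3 0.18, and with the single arrays alone Dntt was −0.051. On leaving out an array Rag2 ran from −0.094 to 0.32, Dntt from −0.062 to 0.50, Vpreb1 from −0.024 to 0.92 and Vpreb3 from −0.38 to 0.20, the lowest without VD(−) pool 1 in each. Il7r and Ebf1 kept their signs under all 23, and Rag2 was too dim for the test on brighter probe sets alone. The members with a VD(−) SD over 2 times that of VD(+), 7 with all arrays, were 5 to 7 on leaving out an array and 4 with either part of the VD(−) arrays alone, where fewer arrays define the SD. The causes were not tested beyond these settings.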
